A study of Sus scrofa with 21 samples.

Results

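The genes described here are members of the Notch signalling pathway and genes that mark arterial endothelium, read in RNA from pig (Sus scrofa) vessels and blood. The rule named 9 genes by symbol: the ligands JAG1 and DLL4, the receptors NOTCH1 and NOTCH4, the target genes HEY2 and HEY1, and the arterial identity genes GJA5, EFNB2 and SOX17. Of these, 7 had a row among the 24358 genes of the table, and NOTCH1 and SOX17 were not analysed here. The study set a 3D-printed microbrush, passed through a vessel to collect endothelial cells, beside a Nitinol wire, aorta and whole blood.

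The microbrush gave 10 libraries, 5 from peripheral kidney artery and 5 from peripheral liver artery, and the wire gave 4 libraries, 2 from each of the same arteries. Aorta gave 4 libraries and whole blood gave 3. The device libraries were shared evenly by pigs 243K and 248K, with 5 from the microbrush and 2 from the wire in each, and blood 1 and 2 came from pig 243K and blood 3 from pig 248K. All 4 aorta libraries came from pig 237053, so that aorta and that animal cannot be told apart. The labels give no strain, age, sex or treatment of the animals. Libraries of the same pig are not separate animals. The p-values below rest on the spread between libraries, which the fits share in part across genes.

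Notch receptors on a cell are activated by ligands on its neighbour, which leads to release of the receptor's intracellular part, its move to the nucleus and transcription of HEY and HES genes with RBPJ. In the embryo this pathway sets arterial against venous fate of endothelial cells, and in the vessel wall it also acts in smooth muscle. GJA5 (connexin 40) and EFNB2 (ephrin-B2) are widely used marks of arterial endothelium, but several of these genes are read by more than 1 cell type of an artery.

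In the RefSeq annotation of Sscrofa11.1, the build that the submitters' processing notes name, JAG1 lies on chromosome 17 from 19591248 to 19629659 and DLL4 on chromosome 1 from 130376720 to 130386411. NOTCH4 lies on chromosome 7 from 24231293 to 24256281. HEY2 lies on chromosome 1 from 37219887 to 37231321 and HEY1 on chromosome 4 from 56859640 to 56863807. GJA5 also lies on chromosome 4, from 99854129 to 99871288, and EFNB2 on chromosome 11 from 74188337 to 74232768. The counts are per whole gene, so exons and isoforms are not separated.

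A brush library held 1144932 to 10188552 counts, a wire library 1946286 to 11128400, an aorta library 1603229 to 3033008 and a blood library 5634 to 5301288. Blood 2, with 5634 counts, held no count of any of the 7 genes. In CPM, counts scaled to the same library total, a single count there is worth 178, so blood 2 was left out of levels and tests and the blood values are those of blood 1 and blood 3. Microbrush 4 had counts for 3831 genes and none for any of the 7. The endothelial markers CDH5, EMCN, ECSCR, MMRN2 and CLEC14A were at 0 there too, which makes 5 of the 12 endothelial markers in the table. Wire 2 with 9715 genes and wire 3 with 10169 genes, both from pig 248K, each had 6 of the 12 at 0. Levels below are CPM after TMM scaling over 20 libraries, and they are compared between libraries and not between genes. In bulk RNA, fewer cells of a type and less RNA per cell cannot be told apart.

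JAG1, the ligand that endothelial cells also present to smooth muscle, was high on brushes and in aorta, and low in blood. On kidney brushes it stood at 83.7, 86.9, 202, 272 and 579 CPM, and on liver brushes at 0, 47.4, 122, 274 and 663 CPM. The wires held 0, 22.9, 101.4 and 122 CPM, the aorta libraries 166, 191, 231 and 247 CPM, and the blood libraries 19.6 and 36.4 CPM. Every wire library lay below every aorta library, and every aorta library above both blood libraries, while the brushes spanned the range of all the others. Means were 233 ± 224 CPM on brushes (SD, n = 10), 61.7 ± 59.3 CPM on wires (n = 4), 209 ± 36.6 CPM in aorta (n = 4) and 28.0 ± 11.9 CPM in blood (n = 2).

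DLL4, the ligand typical of arterial and sprouting endothelium, did not follow JAG1. On kidney brushes it stood at 5.73, 8.13, 26.7, 38.5 and 55.8 CPM, and on liver brushes at 0, 2.94, 8.16, 29.1 and 45.3 CPM. The wires held 0, 4.16, 44.2 and 75.4 CPM, aorta 24.9, 27.0, 33.3 and 47.4 CPM, and blood 10.8 and 37.3 CPM. The ranges of all groups overlapped. The brush libraries with the most JAG1, microbrush 9 and microbrush 5, had the least DLL4 among the brushes with any count of it.

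NOTCH4, the receptor largely restricted to endothelium, was highest in a pair of wire libraries. The wires held 0.373, 9.16, 45.6 and 91.3 CPM. Kidney brushes held 3.08, 9.91, 11.7, 15.5 and 18.3 CPM and liver brushes 0, 3.64, 12.4, 19.1 and 40.2 CPM, against 4.53, 7.66, 8.70 and 12.7 CPM in aorta and 6.28 and 6.34 CPM in blood. The counts behind these values were small, from 13 to 32 in aorta and 25 and 27 in blood. The highest values belonged to wire 4, wire 1 and microbrush 6, all from pig 243K. The same 3 libraries held the most CDH5 (VE-cadherin, the junction protein of endothelium), at 64.9, 49.7 and 149 CPM. KDR, another endothelial gene, was instead highest in wire 3, at 635 CPM, where NOTCH4 was at 0.373 CPM.

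HEY2, a transcriptional repressor and Notch target of arterial cells, had every wire library below every aorta library. The wires held 6.34, 12.9, 19.6 and 20.7 CPM and the aorta libraries 38.7, 48.5, 52.9 and 98.4 CPM. On kidney brushes HEY2 stood at 20.7, 25.7, 61.2, 77.7 and 254 CPM, on liver brushes at 0, 17.7, 35.8, 65.9 and 170 CPM, and in blood at 5.27 and 13.6 CPM. Apart from microbrush 4, every brush library lay above both blood libraries, and the same held for JAG1, GJA5 and EFNB2. With microbrush 4 at 0, no member had every brush library above blood, as 0.594% of all genes tested had. The share of all genes without microbrush 4 was not counted, so whether this separation is unusual cannot be said. For GJA5 it was narrow, with 20.3 CPM in microbrush 8 against 19.95 CPM in blood 3.

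HEY1, the related target gene, spread over like ranges in every group. Kidney brushes held 12.8, 17.1, 29.1, 35.6 and 59.4 CPM and liver brushes 0, 1.05, 4.42, 32.3 and 32.8 CPM. The wires held 0, 0, 25.7 and 36.8 CPM, aorta 20.1, 29.8, 32.8 and 35.7 CPM, and blood 4.27 and 23.7 CPM. The zeros stood in microbrush 4, wire 2 and wire 3. A count of 0 there allows a level of up to 1.06, 1.25 and 0.559 CPM in the same order, from 3 counts and counting error only.

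GJA5, the gap junction protein of arterial endothelium and of atrial conduction, had its highest values on brushes. Kidney brushes held 51.3, 55.4, 131, 170 and 390 CPM and liver brushes 0, 20.3, 56.9, 174 and 661 CPM. The wires held 0.745, 55.4, 57.0 and 85.0 CPM, aorta 35.9, 37.1, 43.1 and 51.9 CPM, and blood 6.28 and 19.9 CPM. Both blood libraries lay below all 4 aorta libraries, and 8 of the 10 brush libraries had values above the aorta median of 40.1 CPM.

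EFNB2, the membrane ligand of the venous receptor EPHB4, was found in all brush libraries but microbrush 4. Kidney brushes held 49.2, 54.0, 67.5, 99.6 and 100.3 CPM and liver brushes 0, 22.9, 64.4, 169 and 176 CPM. The wires held 0, 41.2, 69.8 and 102.8 CPM, aorta 51.9, 60.6, 64.2 and 105.8 CPM, and blood 7.28 and 18.5 CPM. Brush, wire and aorta ranges overlapped, and blood lay below every aorta library.

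**Figure D1:**
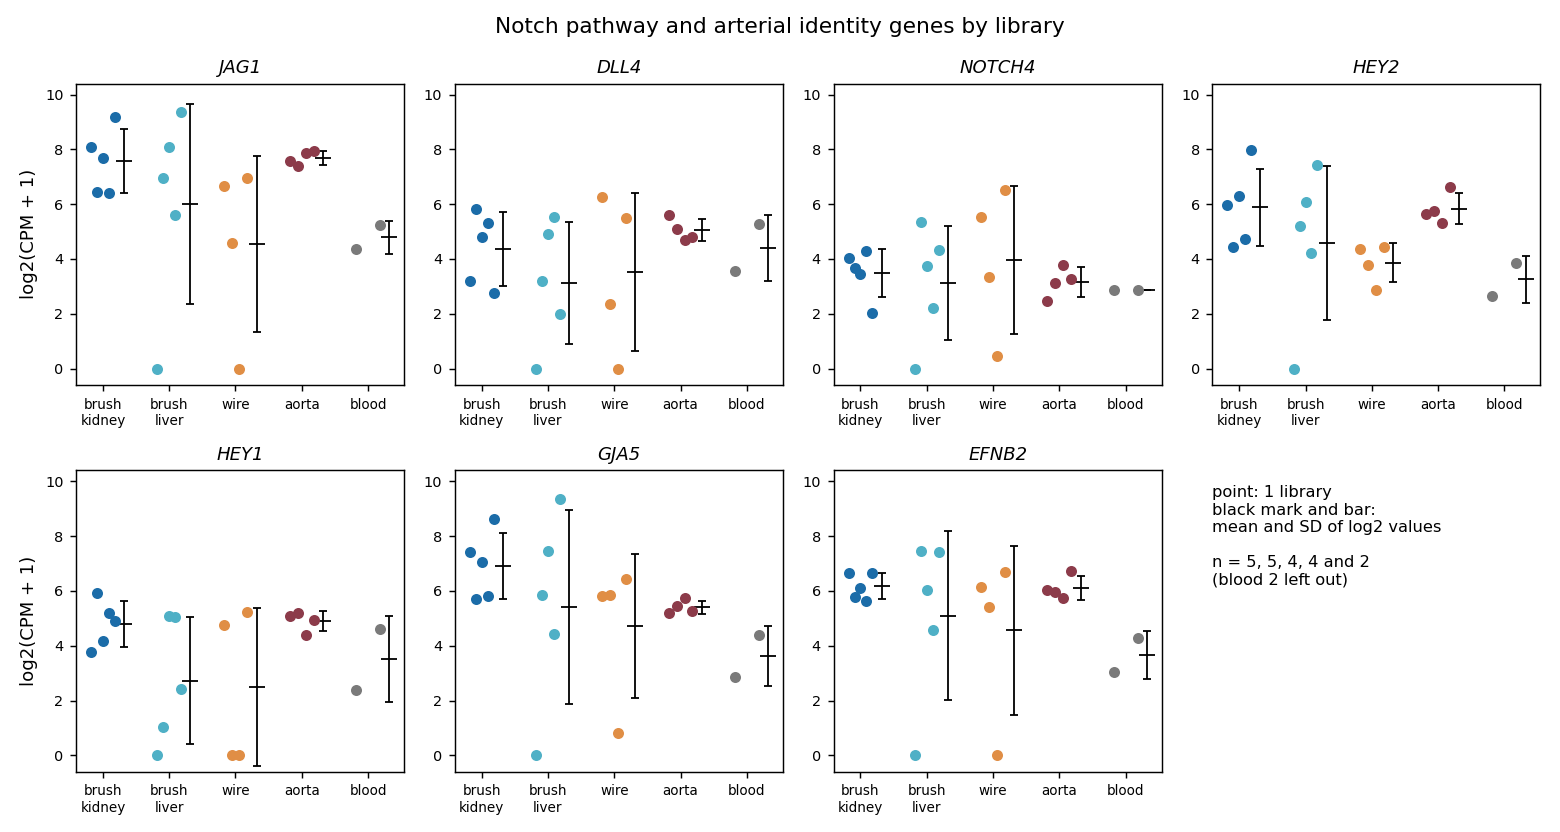
Level of each of the 7 genes in every library, as log2(CPM + 1), for microbrush, wire, aorta and blood. Points are libraries and bars give the mean and SD of each group. Microbrush 4 lies at 0 in all 7 genes, and the 4 aorta libraries lie above both blood libraries for HEY2, JAG1, GJA5 and EFNB2.

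Ordered by mean, JAG1 ran from microbrush kidney (245 CPM) over microbrush liver (221 CPM), aorta (209 CPM) and wire (61.7 CPM) to blood (28.0 CPM). HEY2 ran from microbrush kidney (87.8 CPM) over aorta, microbrush liver and wire to blood (9.44 CPM), and EFNB2 from microbrush liver (86.6 CPM) over microbrush kidney, aorta and wire to blood (12.9 CPM). GJA5 ran from microbrush liver (182 CPM) over microbrush kidney, wire and aorta (42.0 CPM) to blood (13.1 CPM). NOTCH4 had wire at the head of its order (36.6 CPM), DLL4 had aorta (33.2 CPM) and HEY1 had microbrush kidney (30.8 CPM). The ranges of neighbours in these orders overlapped, except that every aorta library lay above every wire library for JAG1 and above both blood libraries for GJA5. Blood stood last for all of the genes but DLL4, for which liver brushes did (17.1 CPM).

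The comparison of brush with wire asks what the brush adds to a bare device in the same arteries. None of the 7 genes passed the test: 0 of 7 had an adjusted p under 0.05 in edgeR, against 0% of the 16439 genes tested. HEY2 was the only member with an unadjusted p under 0.05, which 2.66% of all genes tested had with a higher level on brushes. It averaged 72.9 ± 79.6 CPM on brushes (SD, n = 10) and 14.9 ± 6.64 CPM on wires (n = 4), a log2 fold change of 2.23 ± 1.04 (SE) with a p of 0.0375 and an adjusted p of 0.9998 by edgeR's quasi-likelihood test. JAG1 and GJA5 had log2 fold changes of 1.93 ± 1.15 and 1.78 ± 1.09, EFNB2 and HEY1 of 0.64 ± 0.99 and 0.51 ± 1.28, and DLL4 and NOTCH4 of -0.54 ± 1.13 and -1.34 ± 1.09. The interval of the HEY2 difference ran from 0.20 to 4.26 and that of NOTCH4 from -3.48 to 0.79, so differences of several fold lie within them. Over all genes tested, 437 were higher and 81 lower at an unadjusted p under 0.05. DESeq2 called 96 genes higher and 5 lower and limma voom called 0, and no member was among the genes called by either.

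Brush against aorta sets the sampled arteries beside a whole vessel. Again 0 of 7 passed in edgeR, against 0.125% of the 16776 genes tested, and no member had an unadjusted p under 0.05, as 3.33% of all genes had with a higher and 1.47% with a lower level on brushes. GJA5 came nearest, with 171 ± 206 CPM on brushes (SD, n = 10) and 42.0 ± 7.33 CPM in aorta (n = 4). Its log2 fold change was 2.04 ± 1.03, with a p of 0.0579 and an adjusted p of 0.9998 in edgeR. The log2 fold changes of HEY2, JAG1 and EFNB2 were 0.31 ± 0.87, 0.18 ± 0.91 and 0.32 ± 0.84, and that of NOTCH4 was 0.87 ± 0.99. DLL4 and HEY1 had log2 fold changes of -0.57 ± 0.87 and -0.41 ± 0.89. DESeq2 and limma voom called no member either, with 211 and 24 genes called in all.

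Brush against blood asks which signal is not that of the blood in the vessel. Here 0 of 7 passed in edgeR, against 0.0168% of the 17832 genes tested. Of the 7, 4 had a higher level at an unadjusted p under 0.05, against 2.42% of all genes tested: GJA5 with a log2 fold change of 3.91 ± 1.63 (p = 0.0211), JAG1 with 3.27 ± 1.54 (p = 0.0386), HEY2 with 3.15 ± 1.501 (p = 0.0416) and EFNB2 with 2.95 ± 1.43 (p = 0.0448), each with an edgeR adjusted p of 0.99998. NOTCH4, HEY1 and DLL4 had log2 fold changes of 1.48 ± 1.55, 0.87 ± 1.44 and 0.09 ± 1.33. DESeq2 called GJA5 (log2 fold change 3.92, adjusted p = 0.0484) among 303 genes, or 1.7% of those tested, and limma voom called no member among 11.

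Wire against aorta gave 0 of 7 in edgeR, against 3.57% of the 15313 genes tested. HEY2 averaged 14.9 ± 6.64 CPM on wires and 59.6 ± 26.5 CPM in aorta (n = 4 each), a log2 fold change of -1.86 ± 0.61 with a p of 0.0102 and an adjusted p of 0.152 by edgeR, where 4.27% of all genes tested were lower on wires at an unadjusted p under 0.05. JAG1 had a log2 fold change of -1.70 ± 1.10 (adjusted p = 0.699, edgeR). These were the 2 members with every wire library below every aorta library, as 13% of all genes tested were. The smooth muscle genes described below summed to between 2480 and 11800 CPM on wires, mainly from CALD1, and to between 28400 and 63300 CPM in aorta. MYH11 of that list averaged 322 ± 380 CPM on wires and 25200 ± 10400 CPM in aorta (n = 4 each). The part of smooth muscle genes in the HEY2 and JAG1 differences was not tested. NOTCH4 had a log2 fold change of 2.16 ± 1.20 (adjusted p = 0.582, edgeR). DESeq2 called HEY2 lower on wires (log2 fold change -2.07, adjusted p = 0.00487), along with 7.29% of all genes tested, 614 higher and 502 lower. Without wire 2 and wire 3, a choice made after seeing the data that leaves 2 wires of pig 243K, edgeR called NOTCH4 higher (log2 fold change 3.04, adjusted p = 0.00123) and HEY2 lower (-1.54, adjusted p = 0.049), in a fit that called 8.47% of the 16663 genes tested.

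Wire against blood gave 0 of 7 in edgeR, against 0.0486% of the 16461 genes tested. No member had an unadjusted p under 0.05, as 1.99% of all genes had with a higher and 2.41% with a lower level on wires. The log2 fold changes were 2.63 ± 1.84 for NOTCH4, 2.14 ± 1.496 for EFNB2, 2.02 ± 1.33 for GJA5 and 1.24 ± 1.70 for JAG1. Neither DESeq2 nor limma voom called a member, though they called 246 and 81 genes. Leaving out wire 2 and wire 3, a choice made after seeing the data, left 2 wires of pig 243K against 2 blood libraries. The wires left out had 1 of 7 members at 0 in wire 2 and 4 of 7 in wire 3. Their removal thus takes zeros out of the wire group. In that fit edgeR called 4 members higher, where 2.07% of the 16275 genes tested were called higher and 5.03% in either direction. The 4 were NOTCH4 (log2 fold change 3.39, adjusted p = 0.00184), EFNB2 (2.67), GJA5 (2.34) and JAG1 (adjusted p = 0.0452).

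Aorta against blood was the comparison in which members passed the test. HEY2, JAG1, EFNB2 and GJA5 were higher in aorta, which makes 4 of 7, against 9.82% of the 17082 genes tested that were higher and 28.5% that were called in either direction. HEY2 averaged 59.6 ± 26.5 CPM in aorta (n = 4) and 9.44 ± 5.89 CPM in blood (n = 2), a log2 fold change of 2.61 ± 0.50 (edgeR adjusted p = 1.78e-06). JAG1 had a log2 fold change of 2.86 ± 0.61 (edgeR adjusted p = 2.7e-05), EFNB2 of 2.41 ± 0.49 (1.17e-05) and GJA5 of 1.65 ± 0.48 (0.0032). Every aorta library lay above both blood libraries for these 4, as 19.2% of all genes tested did. HEY1 had a log2 fold change of 1.07 ± 0.49 (edgeR adjusted p = 0.0878), DLL4 of 0.45 ± 0.45 (0.491) and NOTCH4 of 0.34 ± 0.62 (0.724). DESeq2 called the same 4 members and limma voom called 5, with HEY1 added, where 9.87% and 9.93% of all genes tested were higher. With blood 2 kept in the fit, or with all libraries in a common fit, 0 of the 7 passed. Without blood 1, 3 passed and GJA5 did not, where 6.3% of all genes tested were higher, and without blood 3, 6 passed with HEY1 and DLL4 among them, where 15.3% were. The edgeR p-values of the members match a normal tail of the fold change over its SE here. They rest on a spread shared across genes, not on each gene's own spread over 4 and 2 libraries. Pig and tissue cannot be told apart here.

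**Figure D2:**
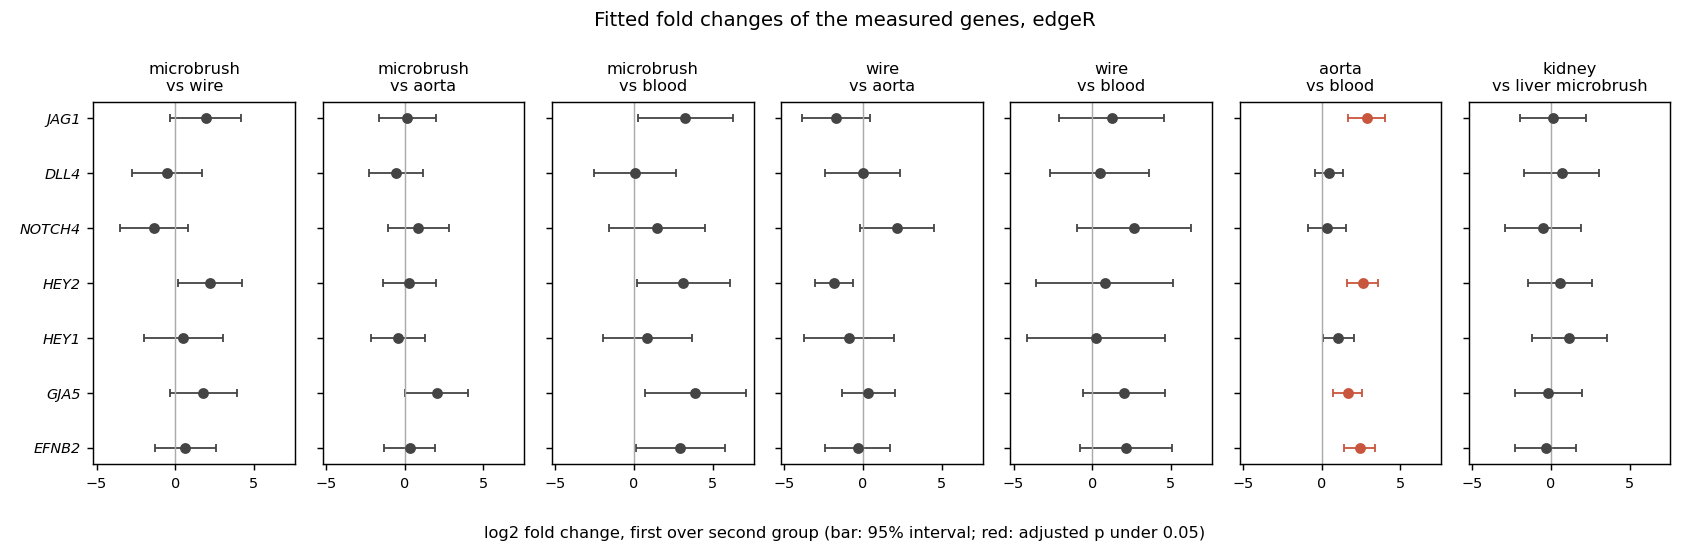
Log2 fold change of each of the 7 genes in the 6 comparisons among microbrush, wire, aorta and blood and in kidney against liver brushes, first group over second, with 95% intervals, and red where the edgeR adjusted p was under 0.05. Red points stand in aorta against blood, for HEY2, JAG1, EFNB2 and GJA5.

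Kidney and liver brushes, which ask whether the artery sampled matters, gave 0 of 7 in edgeR, against 0% of the 15013 genes tested, of which 15 were higher and 223 lower in kidney at an unadjusted p under 0.05. DESeq2 called 66 genes and limma voom 0, with no member among them. The largest log2 fold change was that of HEY1, at 1.19 ± 1.21 (edgeR adjusted p = 0.9998), with 30.8 ± 18.4 CPM on kidney brushes and 14.1 ± 16.9 CPM on liver brushes (SD, n = 5 each). JAG1 had a log2 fold change of 0.14 ± 1.06, with an interval from -1.94 to 2.22. The brush-to-wire difference itself was tested between the organs, and 0 of the 17809 genes passed in edgeR, with 525 at an unadjusted p under 0.05. For NOTCH4 the difference between organs was -1.61 ± 2.48 and for DLL4 1.42 ± 2.42 on the log2 scale.

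Among the 9 brush libraries with counts of these genes, some members shared an order and DLL4 had the opposite one. JAG1, GJA5 and HEY2 ranked the brushes alike, with rank correlations of 0.98 between JAG1 and GJA5, 0.93 between HEY2 and GJA5 and 0.92 between HEY2 and JAG1. DLL4 ran the other way, with rank correlations of -0.83 to JAG1, -0.83 to HEY2 and -0.87 to GJA5, and 0.78 to HEY1. HEY1 itself had a rank correlation of -0.45 to JAG1 and to HEY2, and NOTCH4 kept to neither order, with 0.08 to JAG1 and -0.25 to DLL4. These 9 libraries come from 2 pigs and share their scaling, so the correlations, of log2(CPM + 1) values, describe these libraries and carry no p. DLL4 was at 55.8 CPM in microbrush 10, with 19125 genes detected and a TMM factor of 1.94. In microbrush 9 it was at 2.94 CPM, with 15023 genes and a factor of 0.812. Microbrush 1, with 18611 genes and a factor of 0.582, held 8.1 CPM. The part of gene number and scaling in these orders was not tested.

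Summed over a list, smooth muscle genes had an order like that of JAG1, GJA5 and HEY2 on these 9 brushes. The 10 genes of the list (MYH11, ACTA2, TAGLN and others of the contractile apparatus), none of them at 0 in these 9 libraries, summed to between 2980 CPM in microbrush 10 and 114000 CPM in microbrush 5. Wires summed to between 2480 and 11800 CPM, aorta to between 28400 and 63300 CPM, and blood to 346 and 648 CPM. The rank correlation with this sum was 0.92 for GJA5, 0.90 for JAG1, 0.88 for HEY2 and 0.62 for EFNB2. It was -0.90 for DLL4, -0.57 for HEY1 and -0.08 for NOTCH4. Without the 2 libraries farthest from the median sum, Pearson's r was 0.98 for JAG1, 0.96 for GJA5, 0.92 for HEY2, 0.70 for EFNB2, 0.14 for NOTCH4, -0.10 for HEY1 and -0.77 for DLL4. Fibroblast genes summed to between 352 CPM in microbrush 8 and 64600 CPM in microbrush 9 on the same brushes, with 26100 CPM in microbrush 5. JAG1, GJA5 and HEY2 were likewise lowest of these 9 in microbrush 8 and highest in microbrush 9 and 5. These ends of the order were thus not particular to smooth muscle genes. No correlation with the fibroblast sum was computed. The part of smooth muscle cells and fibroblasts in the levels of the members was not tested.

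**Figure D3:**
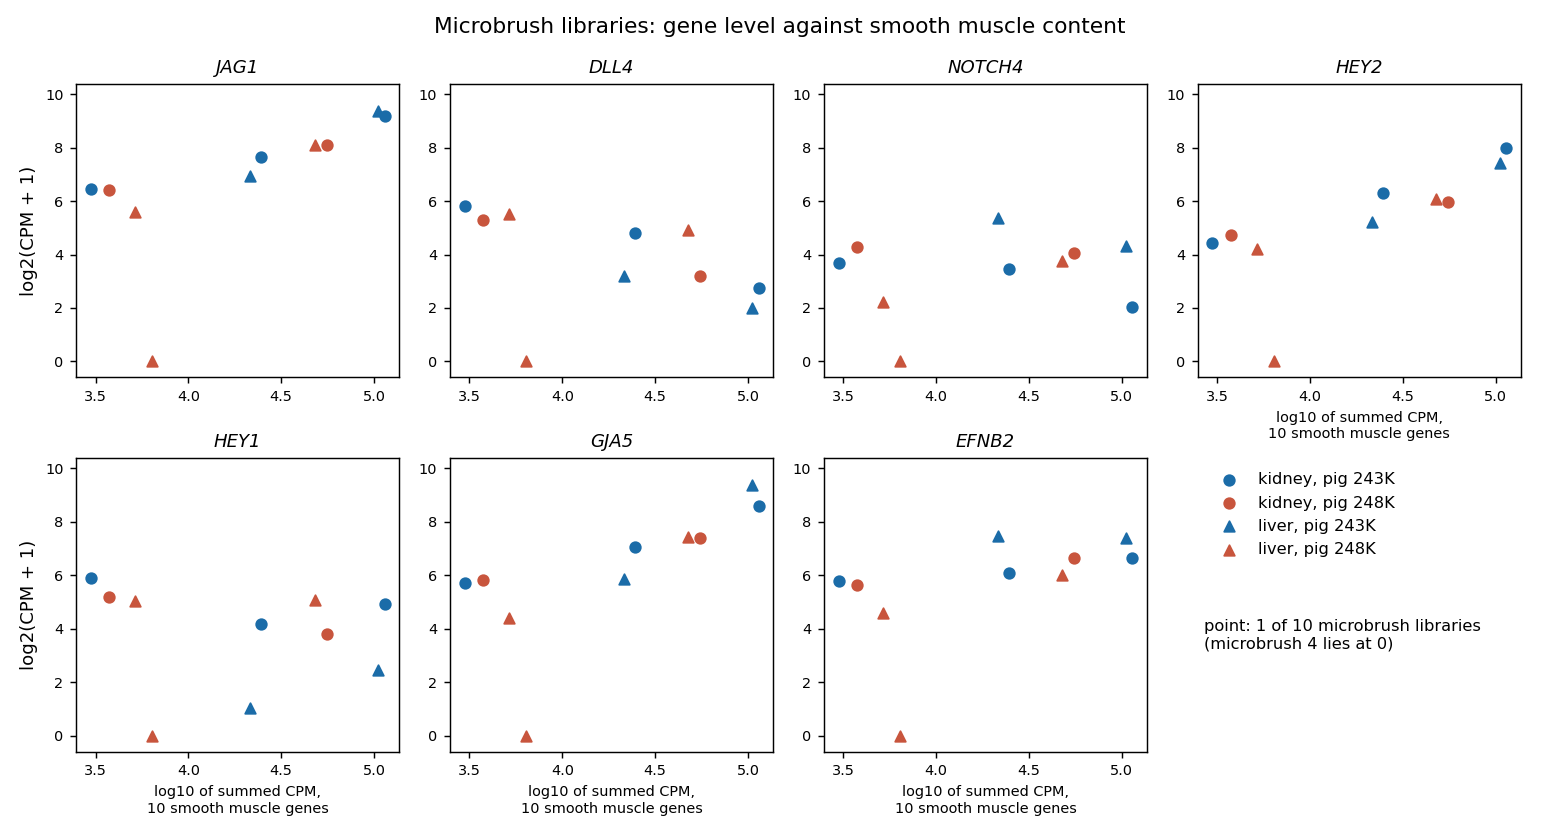
Level of the 7 genes, as log2(CPM + 1), against the log10 of the summed CPM of 10 smooth muscle genes in the 10 microbrush libraries, with organ as shape, pig as colour and microbrush 4 at 0. JAG1, GJA5 and HEY2 are high where the muscle sum is high, up to 114000 CPM, while DLL4 is low there.

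Across the brushes DLL4 and HEY1 had an order like that of LRP2, the endocytic receptor of kidney tubule cells, which was picked out after the values were seen. By likeness over all 20 libraries, the root mean square difference of centred log2(CPM + 1) values, LRP2 ranked 120 of 13278 genes for DLL4 and 412 for HEY1, so many other genes lay closer. Over the same 9 brushes the rank correlation was 0.87 for DLL4 and 0.88 for HEY1, and without the 2 libraries farthest from the median of LRP2 Pearson's r was 0.97 for DLL4 and 0.98 for HEY1. LRP2 stood at 59.9 and 59.4 CPM in kidney brushes 10 and 3 and at 54.7 CPM in liver brush 8. It was at 4.60 CPM in liver brush 6 and at 4.85 CPM in kidney brush 5. The hepatocyte gene ALB stood at 26.1, 19.4 and 26.5 CPM in microbrush 10, 3 and 8, and at 0.837 and 2.20 CPM in microbrush 6 and 5. LRP2 was at 37.1 to 49.8 CPM in aorta and at 14.1 and 41.1 CPM in blood. Hepatocyte genes summed to between 44.0 and 56.3 CPM in aorta and to 27.9 and 42.7 CPM in blood. A list of kidney tubule and podocyte genes, LRP2 among them, summed to 21.6 to 90.3 CPM on kidney brushes and 0 to 71.3 CPM on liver brushes. The same list summed to 52.3 to 69.4 CPM in aorta and to 21.9 and 53.0 CPM in blood. Whether LRP2 stands for kidney tubule RNA in these libraries, and any part of such RNA in the levels of DLL4 and HEY1, was not tested.

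NOTCH4 had a profile over the 20 libraries near that of CDH5. This endothelial gene, picked out after the values were seen, ranked 13 of 13278 genes in likeness to NOTCH4, at a difference of 0.90. The endothelial markers CLEC14A and MMRN2 ranked 1041 and 1049, at 1.39 each. KDR and PECAM1 went another way: they stood at 635 and 436 CPM in wire 3 and at 303 and 347 CPM in microbrush 4. NOTCH4 was at 0.373 and 0 CPM there, and CDH5 at 0.186 and 0 CPM. Ranks of the remaining endothelial genes are not given. CDH5 ranked 87 for EFNB2, 863 for GJA5, 890 for JAG1, 3936 for HEY2, 4382 for DLL4 and 6760 for HEY1. Over the 9 brushes the rank correlation of NOTCH4 with the summed endothelial list was 0.70. Pearson's r was 0.59 over the 9 and -0.11 without the 2 libraries farthest from the median sum, so it rests on those libraries.

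**Figure D4:**
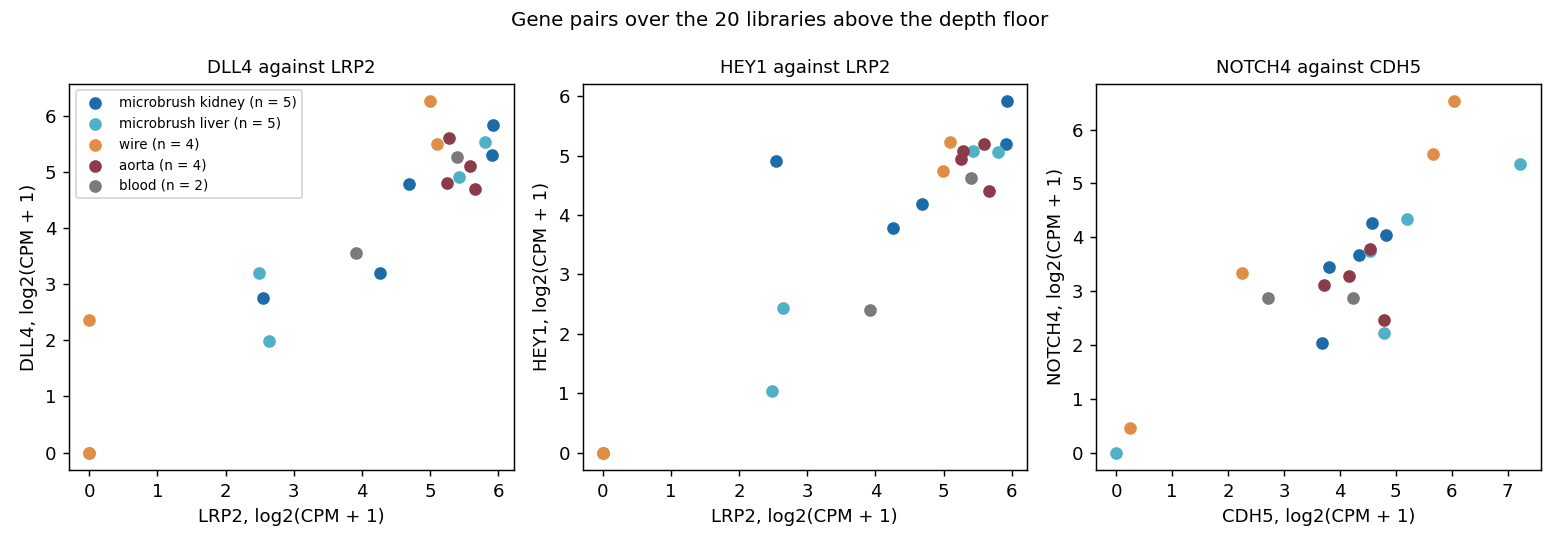
Level of DLL4 and HEY1 against LRP2, and of NOTCH4 against CDH5, over 20 libraries coloured by group. NOTCH4 is highest in wire 4, wire 1 and microbrush 6, where CDH5 is at 64.9, 49.7 and 149 CPM.

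By the same measure, over 20 libraries and 13279 genes, the 3 closest profiles to JAG1 were SAMD4A (0.52), SEMA3F (0.64) and DST (0.65). Those closest to HEY2 were PEAR1 (0.53), PMEPA1 (0.54) and DAPK3 (0.565). GJA5 was closest to FARP1 (0.68), DAB2IP (0.78) and SEPTIN8 (0.795), and EFNB2 to RUNX1T1 (0.66), IGFBP4 (0.68) and MMP28 (0.69). NOTCH4 was closest to BMP6 (0.64), ARHGEF28 (0.68) and BMPER (0.73). DLL4 was closest to PPT2 (0.48), GRM8 (0.56) and PXYLP1 (0.56), and HEY1 to PAQR7 (0.41), SEMA6A (0.43) and HAS2 (0.45). Among the members, EFNB2 ranked 10 and JAG1 13 in likeness to GJA5, while DLL4 ranked 7421. MYH11 of the smooth muscle list ranked 12417 of 13278 genes for JAG1, 13052 for GJA5 and 13118 for HEY2. Unlike the rank correlations over the brushes, this measure also counts the size of differences between libraries.

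Of 31 other genes of the Notch pathway, 29 had a row. On brushes against wires, against aorta and against blood, 0 of the 27, 28 and 28 tested passed in edgeR. NOTCH3, the receptor of smooth muscle and pericytes, averaged 461 ± 503 CPM on brushes (n = 10), 40.8 ± 50.4 CPM on wires (n = 4), 141 ± 49.6 CPM in aorta (n = 4) and 38.0 ± 22.5 CPM in blood (n = 2). Its log2 fold change for brush over wire was 3.46 ± 1.33, with a p of 0.0133 and an adjusted p of 0.986 in edgeR. HEYL, a target gene of the same family as HEY2, averaged 10.1 ± 11.5 CPM on brushes and was at 0 in 3 of 4 wires, with 9.52 ± 7.23 CPM in aorta.

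On wires against aorta, 2 of 27 were higher in edgeR and 0 lower, where 2.8% of all genes tested were higher, with a median log2 fold change of 0.11 against -0.295 over all genes tested. They were NUMB, an inhibitor of Notch receptors (log2 fold change 2.62 ± 0.58, adjusted p = 0.0315), and ADAM10, the protease that makes the first activating cut in Notch (2.60 ± 0.58, adjusted p = 0.0328). In aorta against blood 3 of 28 were higher and 7 lower, where 9.82% and 18.7% of all genes tested were, with a median of -0.32 against 0.15 over all genes tested. ADAM10 (log2 fold change -2.15 ± 0.42), NUMB (-2.03 ± 0.42) and ADAM17 (-1.72 ± 0.42) were lower in aorta, and HEYL was higher (2.62 ± 0.76, edgeR adjusted p = 0.00329).

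Of 18 other arterial identity genes, 16 had a row, and 6 of the 15 tested were higher in aorta than in blood and 0 lower, against 9.82% and 18.7% of all genes tested, with a median log2 fold change of 1.03 against 0.15. FBLN5, an elastic fibre protein, had a log2 fold change of 5.36 ± 0.70, PCSK5, a secretory protease, of 3.65 ± 0.58, EPAS1, the hypoxia factor HIF-2 alpha, of 3.19 ± 0.54 and NRP1, a VEGF and semaphorin coreceptor, of 2.70 ± 0.62 (edgeR adjusted p from 1.6e-12 to 9.68e-05). In brush against wire, aorta and blood and in wire against aorta and blood 0 passed in edgeR. EPAS1 averaged 382 ± 455 CPM on brushes (n = 10), against 65.4 ± 69.7 CPM on wires (n = 4) and 8.88 ± 0.94 CPM in blood (n = 2). Of 10 venous and lymphatic genes, 9 had a row, and 1 of the 8 tested passed in aorta against blood, TSPAN7, a tetraspanin that was higher in aorta (2.16 ± 0.65, edgeR adjusted p = 0.00454). That is near the 9.82% of all genes tested that were higher.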

How the data were processed

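RNA of 21 pig libraries was sequenced. Per the labels' protocols, the RNAdvance Tissue kit was used on total RNA with scaled-down reagents and libraries were made with SMARTer Pico; whether strand was kept is not given in the sources used here. The authors deposited estimated counts per Ensembl gene, and the submitters' processing notes name Salmon, DESeq2 and the build Sscrofa11.1. Values that were not whole made up 11.3% (tolerance 0.001), and counts were rounded for the tests. A table of gene names gave symbols to 14692 of 24358 genes. Members and lists were chosen with earlier results of these data known. Genes were named by a rule: all members, up to 4 genes per list and comparison by smallest p, and the 3 closest profiles per member. CDH5 and ECSCR fall outside it and were chosen after their values were seen.

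Labels gave groups, pigs and organs. Fits used only the libraries compared, in edgeR 4.0.16 (R 4.3.3): filterByExpr with a minimum count of 10, TMM scaling, the robust quasi-likelihood test and Benjamini-Hochberg adjustment over all genes tested, read at 0.05. All 7 members passed the filter in each comparison. Blood 2, under 100000 counts, was left out. The SE of an edgeR fold change is its absolute value over the square root of the F statistic. Intervals are normal 95% intervals of 1.96 SE to each side. They leave out the degrees of freedom of the F test and so can be too narrow. For GJA5 in brush against aorta the interval ran from 0.0146 to 4.06, with an edgeR p of 0.0579. Alternatives were RLE scaling, no filter, a minimum count of 50, DESeq2 1.42.0, voom of limma 3.58.1, a common fit, leave-one-out, the pig as a replicate block, blood 2 kept, and each pig or organ alone. Leaving out libraries of under 11000 genes was chosen after seeing the data. Pairing rests on the pig named in the labels. The test was also checked on simulated data. No pair of libraries in a group agreed within sampling noise.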

Additional observations from a re-analysis of the deposited data

Results flagged for a closer look

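Values were flagged by Dixon's test, the gap to the nearest value as a share of the whole range, on a log2(CPM + 1) scale. Among the 10 brush libraries, microbrush 4 passed the limit for 4 of the 7 genes: HEY2, JAG1, GJA5 and EFNB2, each at 0 CPM there. It also had 0 counts of the other 3 members and of 5 of 12 endothelial markers, with PECAM1 and KDR at 347 and 303 CPM. Among the 4 wires, wire 3 lay apart for GJA5 at 0.745 CPM, with 55.4 to 85.0 CPM in the other 3. In all, 35 groups of values were examined and 5 values passed the limit, all from microbrush 4 and wire 3. Chance flags about 1 in 20 of independent groups, but these groups share libraries, so that rate is only a guide.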

How the results depend on the processing

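Of the fold changes of members recomputed under alternatives, 605 kept their direction and their side of the threshold, 11 passed it newly, 9 no longer passed it and 64 changed sign, and the cause was not tested. The number of members called changed in brush against blood with DESeq2 (1), in wire against aorta with DESeq2 (1) and without libraries of under 11000 genes (2), and in wire against blood without those libraries (4). In aorta against blood it changed with limma voom (5), with a common fit (0), with blood 2 kept (0) and over leave-one-out (3 to 6, against 4). The pig as a replicate block left 0 members called in each of the 4 comparisons it could be fitted to, brush against wire, brush against blood, wire against blood and kidney against liver. No sign change below had an adjusted p under 0.05.

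For brush against wire, DLL4 was at 0.11 with RLE, 0.12 with DESeq2, 0.76 with voom, 3.60 in pig 248K and 0.30 in kidney. HEY1 was at -0.41 in pig 243K and -0.34 without libraries of under 11000 genes, and NOTCH4 at 1.05 in pig 248K. For brush against aorta, HEY2, JAG1 and EFNB2 were at -0.11, -0.295 and -0.19 with RLE and with DESeq2, and at -0.50, -0.86 and -0.375 with voom. For brush against blood, DLL4 was at -0.15 with no filter, -0.10 at a minimum of 50, -0.69 with voom and -0.13 in the common fit. For wire against aorta, GJA5 was at -1.51 with voom, and without libraries of under 11000 genes HEY1, DLL4 and EFNB2 were at 0.0736, 0.875 and 0.30. For wire against blood with voom, HEY1, DLL4, JAG1 and EFNB2 were at -1.94, -1.92, -2.32 and -1.19, and with the pig as a replicate block HEY1 and DLL4 were at -5.67 and -2.04. For kidney against liver, NOTCH4, GJA5 and EFNB2 were at 0.365, 0.0751 and 0.234 with RLE, 0.362, 0.0757 and 0.235 with DESeq2, and 0.783, 1.26 and 0.984 with voom.

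In brush against wire, aorta and blood, leave-one-out covered the libraries of the other group and, of the brushes, microbrush 4 alone. Within that, DLL4 ran from -0.91 to 0.48 in brush against wire, -0.57 to 1.02 in brush against blood, -1.05 to 0.40 in wire against aorta, -0.53 to 1.88 in wire against blood and -0.185 to 1.49 in aorta against blood. GJA5 ran from -0.0573 to 0.74 and EFNB2 from -0.83 to 0.0919 in wire against aorta, and HEY1 from -0.58 to 2.18 in wire against blood. In kidney against liver HEY2 ran from -0.285 to 1.43, JAG1 from -0.42 to 1.04, NOTCH4 from -0.825 to 0.39, GJA5 from -0.77 to 1.26 and EFNB2 from -0.66 to 0.15. RLE put the median of all genes at 0.595 in brush against wire, against 0.166 with TMM. Over all genes, called numbers moved by over 1.5 times, as in wire against aorta with 54 higher without aorta 1, against 429. Blood levels rest on 2 libraries, and NOTCH4 on as few as 13 counts in aorta.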

Other observations

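Endothelial and smooth muscle lists give the setting of these genes. Of the 12 endothelial genes tested, 2 (KDR and PECAM1) were higher on wires than in aorta and 0 lower (edgeR), against 2.8% and 0.764% of all genes tested. In aorta against blood 2 were higher, against 9.82%. The same list summed to between 252 and 2660 CPM on brushes, 267 and 1240 CPM on wires, 209 and 283 CPM in aorta, and to 183 and 239 CPM in blood. In wire 3, KDR and PECAM1 held 635 and 436 of 1170 CPM, with 6 of the 12 genes at 0. In microbrush 4 they held 303 and 347 of 735 CPM, with 5 of the 12 at 0. The sum in these libraries thus rests on KDR and PECAM1, and whether it follows endothelial content was not tested. All 10 smooth muscle genes were higher in aorta than in blood, against 9.82% of all genes tested, and 4 of 10 were lower on wires than in aorta, against 0.764%. In brush against wire 0 of 10 passed, and 8 were higher at an unadjusted p under 0.05, against 2.66%.

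Red cell genes summed to between 169 and 5780 CPM on brushes, 2210 and 35200 CPM on wires, 51.5 and 72.1 CPM in aorta, and to 31400 and 50800 CPM in blood. Platelet genes summed to between 15.7 and 8720 CPM on brushes, 1740 and 7870 CPM on wires, 38.9 and 58.9 CPM in aorta, and to 131 and 355 CPM in blood. Microbrush 6, the brush with the most NOTCH4, also had the highest platelet sum of the brushes.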
